A study of Mus musculus with 16 samples.

Results

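Sterol and fatty acid synthesis is described here through 34 genes, taken by symbol from a gene count table: the regulators of the sterol regulatory element-binding proteins (SREBPs), 18 enzymes of cholesterol synthesis, 1 sterol transporter, and the enzymes that make, lengthen and desaturate fatty acids. All 34 were among the 45664 entries of the table, and all 34 were among the 15754 genes that passed the filter on low counts and were tested. The study sorted 4 myeloid populations from C57BL/6 mice of 8 to 10 weeks and sequenced their RNA, with 4 libraries of each. They were cornea macrophages (CD45+CD11b+CD64+F4/80+), retinal microglia (CD45+CD11b+), brain microglia (CD45+CD11b+) and bone marrow monocytes (CD45+CD11b+CD115+Ly6C+). No population carried a transgene, a deletion or a treatment by the labels, so each comparison is between tissues and cell types, with no untreated control. Each cornea and each retina library came from 10 pooled mice, while the size of the brain and marrow pools is not given clearly, because the descriptions of those 8 libraries name retinal microglia. Cornea cells were released with the enzyme collagenase D while warm, and retinal cells by mechanical dissociation in the cold. Nothing says that brain and marrow libraries came from separate animals, so the p-values measure the spread between these libraries, which may be technical.

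Cholesterol is built from acetyl-CoA through mevalonate, isoprenoids, squalene and lanosterol. When sterols in the endoplasmic reticulum run low, SCAP escorts the SREBPs to the Golgi, where they are cleaved to become active transcription factors, and the INSIG proteins hold SCAP back when sterols are plentiful. SREBP-2 mainly drives the cholesterol genes and SREBP-1 the fatty acid genes, and several pathway genes, including Insig1 and Srebf2 itself, are known SREBP targets. Microglia and macrophages both make sterols and take them up from other cells, and microglia live in tissue rich in myelin lipid.

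Total counts ran between 8677418 and 21756558 per library. The trimmed-mean scaling factors were 0.661 to 0.705 in the cornea libraries and 1.07 to 1.25 in the other 12, so levels in cornea depend on the scaling, and levels are given as CPM, a gene's reads as a share of the scaled library total. Without it the median log2 difference of all genes, cornea over the others, is -0.92 against retina and -0.67 against both brain and marrow, in place of -0.12, 0 and 0. The column headers name 2 sequencer lanes: lane 2 held 3 cornea, 4 retina and 1 marrow libraries, and lane 3 held 1 cornea, 4 brain and 3 marrow libraries. Retina and brain therefore share no lane. Microglial marker genes summed to 26900 to 33200 CPM in retina and 43500 to 48700 CPM in brain libraries, against 1820 to 2090 CPM in cornea and 591 to 931 CPM in marrow libraries. Ly6c2, a classical monocyte gene, averaged at most 0.285 CPM in cornea, retina and brain and 2460 CPM in marrow. The whole list of 8 classical monocyte genes separated the populations less. It summed to 15100 to 19700 CPM in marrow, 11900 to 15200 in brain, 8620 to 11300 in retina and 4700 to 5410 in cornea. Mrc1, a tissue macrophage gene, averaged 1550 CPM in cornea and at most 21.3 CPM elsewhere. Fcgr1, which encodes the CD64 used to sort the cornea cells, averaged 71.2 CPM in cornea macrophages, below 352 CPM in retina, 323 CPM in brain and 129 CPM in marrow.

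Transcripts of other cells were present in some libraries. In cornea libraries, 9 corneal epithelial markers summed to 233 to 1460 CPM, highest in replicate 1, and 8 keratocyte and stromal markers to 1400 to 2600 CPM, against at most 10.1 and 1.23 CPM in any other library. Of the epithelial markers Krt5 and Trp63, and of the stromal markers Lum, were at 0 in both microglia populations. Photoreceptor markers (14 genes) summed to 825 to 7950 CPM in retina, lowest in replicate 3 and highest in replicate 4, and to at most 6.14 CPM elsewhere. Neuron markers (7 genes) summed to 24.2 to 165 CPM in retina and at most 2.58 CPM elsewhere. Mueller glia and astrocyte markers (9 genes, with Gfap and Dkk3 at 0 in brain) summed to 368 to 444 CPM in brain and 219 to 311 in retina. In cornea they summed to 49.9 to 66.8 CPM and in marrow to 21.8 to 33.7. Oligodendrocyte markers (8 genes) summed highest in marrow, at 383 to 399 CPM, with 164 to 169 in brain and 149 to 175 in retina. In marrow, 10 granulocyte markers summed to 738 to 4510 CPM and 7 erythroid markers to 390 to 2550 CPM, both highest in replicate 1. Immediate-early and dissociation genes (11 genes) summed to 20400 to 31000 CPM in cornea, 954 to 2120 CPM in retina, 870 to 1210 CPM in brain and 334 to 1160 CPM in marrow. The part of these transcripts in the differences below was not tested, and in bulk libraries fewer cells of a type and less RNA per cell cannot be told apart.

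Cornea macrophages had the highest mean level for 17 of the 34 genes, retinal microglia for 5, brain microglia for 4 and marrow monocytes for 8; over all tested genes these shares were 31%, 21.2%, 20.6% and 27.2%. The lowest mean was most often in brain microglia, for 14 of 34 members against 22.3% of tested genes. Both tallies were made with the trimmed-mean factors and depend on them. By total counts alone Srebf1 was lower in cornea than in marrow (log2 -0.47). Acat2 (-0.15) and Elovl1 (-0.70) were then lower in cornea than in retina. Others of the 17, such as Insig1 and Sqle, stayed higher in cornea than in each other population. Summed over the 18 mevalonate and sterol enzymes, cornea macrophages had 766 ± 43.1 CPM, retinal microglia 410 ± 39.6, brain microglia 316 ± 29.8 and marrow monocytes 376 ± 12.2 (mean ± SD, n = 4 each). The cornea libraries, at 702 to 795 CPM, lay above all others, which spanned 273 to 443 CPM. Scaled by total counts alone the same sums were 528 ± 25.0 CPM in cornea, 490 ± 33.9 in retina, 347 ± 24.8 in brain and 414 ± 4.10 in marrow. Cornea was then still highest on average, but the cornea range of 495 to 554 CPM overlapped the retina range of 443 to 516 CPM.

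Other steps had other orders. The citrate-to-palmitate enzymes Acly, Acaca and Fasn together had 189 ± 31.4 CPM in cornea, 204 ± 48.9 in retina, 224 ± 17.2 in brain and 344 ± 10.3 in marrow, and marrow was also highest under total counts alone. The 4 desaturases had 133 ± 17.5 CPM in cornea, 135 ± 21.7 in retina, 319 ± 32.7 in brain and 58.8 ± 27.9 in marrow, with no overlap between brain and any other population under either scaling. For the 3 elongases the order turned with the scaling: cornea had the highest mean, 301 ± 9.20 CPM, with the trimmed-mean factors and the lowest, 208 ± 8.84 CPM, by total counts. The sum over all 34 genes behaved the same way, at 1900 ± 83.3 CPM in cornea and 1170 to 1300 CPM elsewhere with the factors, and 1310 ± 37.5 against 1390 to 1430 CPM without them.

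**Figure D1:**
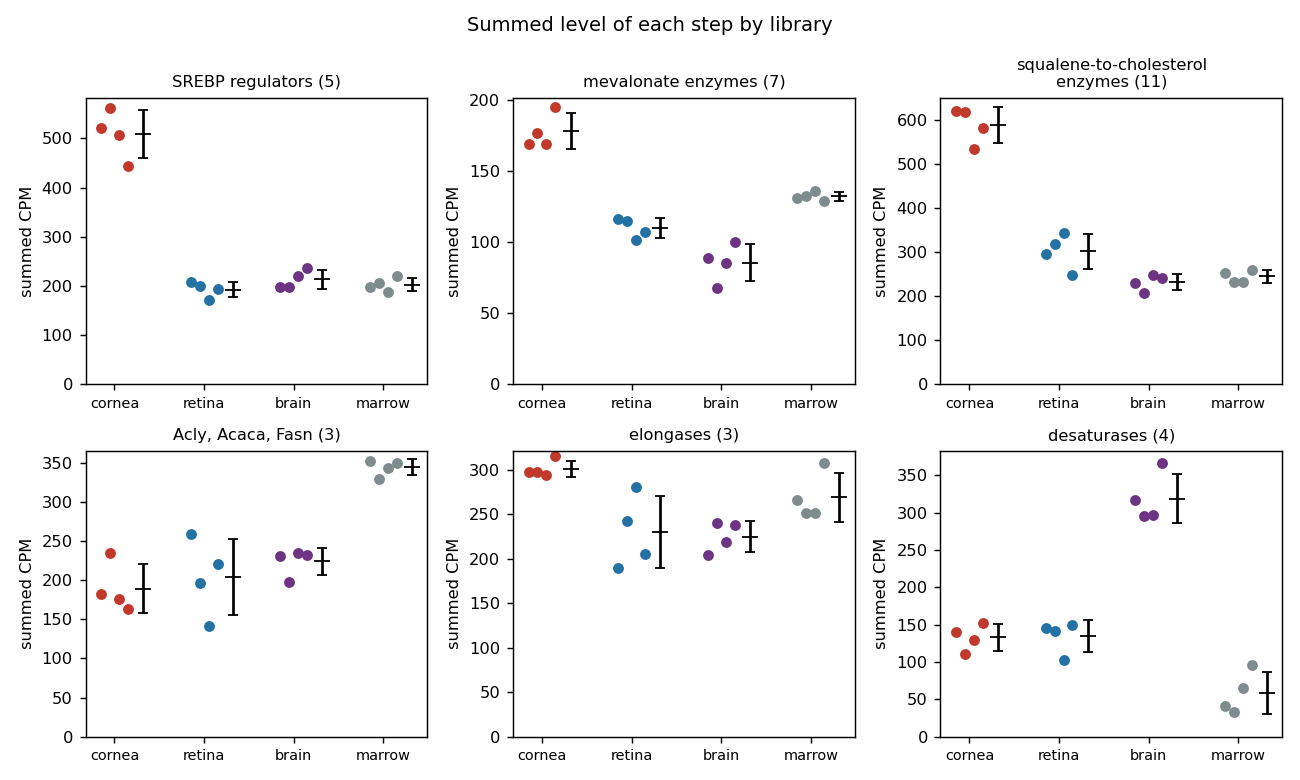
Summed level (CPM, y axis from 0) of the genes of each step in the 4 populations, with 1 point for each of 4 replicate libraries and the mean ± SD in black. The sum of the sterol enzymes is highest in cornea macrophages, that of the desaturases in brain microglia, and that of Acly, Acaca and Fasn in bone marrow monocytes. Single genes differ from their sum: Ebp is lowest in cornea, Fads2 and Scd1 are highest in cornea, and so is the mean of Fasn. Acly alone averages 311 CPM in marrow.

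**Figure D2:**
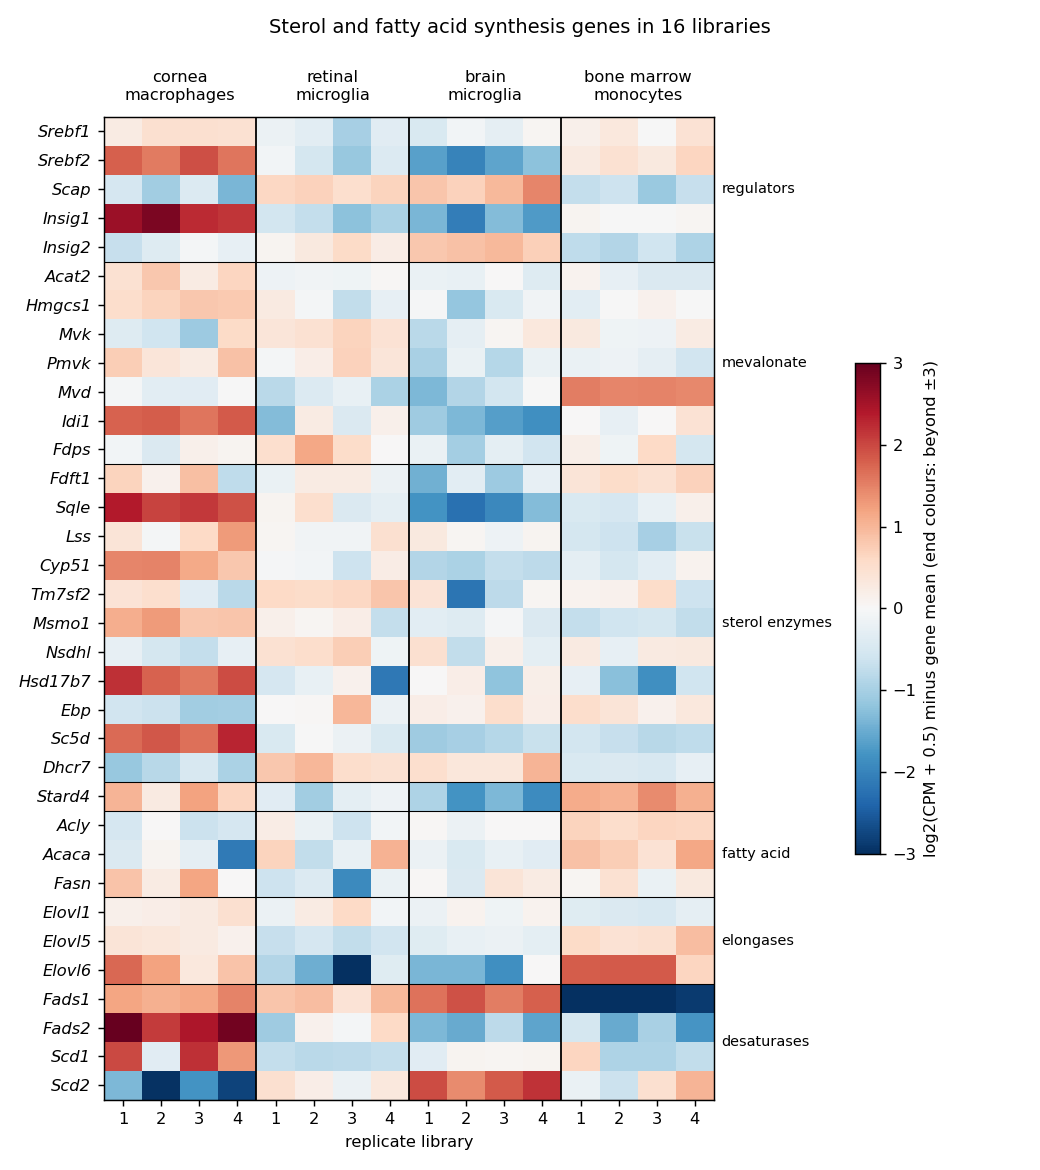
Each of the 34 genes (rows, grouped by step) in each of the 16 libraries (columns), as log2(CPM + 0.5) minus the mean of that gene. Red blocks in the cornea columns mark Srebf2, Insig1, Idi1, Sqle, Cyp51, Sc5d and Hsd17b7, and a red block in the brain columns marks Scd2.

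Differences were tested with edgeR's quasi-likelihood test fitted on all 16 libraries, and a gene was called when its p-value, adjusted by Benjamini-Hochberg over all 15754 genes, was under 0.05. Cornea macrophages against retinal microglia gave 17 members higher and 6 lower, where 30.9% of all tested genes were called higher and 35.1% lower, or 66% in either direction. Against brain microglia cornea macrophages had 18 members higher and 5 lower, beside 33.8% and 33.1% of all genes (66.8% in all). For cornea macrophages over marrow monocytes the counts were 17 higher and 6 lower, beside 32.2% and 31.1% (63.3% in all). The share of members called in these pairs, 67.6% in each, was near the background, and the members divided towards higher where all genes divided nearly evenly. The division depended on scaling: by total counts alone, cornea had 10 members higher and 12 lower against retina, 10 and 9 against brain, and 12 and 13 against marrow. Under that scaling 72.4%, 70.9% and 70% of all genes were called in these pairs, with all-gene medians of -0.92, -0.67 and -0.67. The near-even split of members thus stood beside a background that leaned lower. Total counts ended the calls of Srebf1, Acat2, Hmgcs1, Msmo1, Stard4, Fasn and Elovl5 against retina. They ended those of Srebf1, Acat2, Hmgcs1, Pmvk, Fdft1, Elovl5, Elovl6 and Scd1 against brain, and of Insig2, Acat2, Hmgcs1, Pmvk and Elovl1 against marrow. The median member log2 difference was 0.61 over retina, 0.63 over brain and 0.47 over marrow, beside medians of -0.12, 0 and 0 for all genes. Every cornea library exceeded every retina library for 18 members and lay under them all for 7, where 28.5% and 30.5% of tested genes did so. Against brain these counts were 17 and 6 (31.7% and 30.7% of tested genes), and against marrow 15 and 6 (28.8% and 29.2%).

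Retinal microglia over brain microglia had 9 members higher and 3 lower, beside 6.95% and 3.6% of all genes (10.5% in all); the split was 10 and 1 by total counts. Leaving out 1 of the 8 retina and brain libraries gave 5 to 7 higher and 1 to 2 lower. In those fits 6.95% to 9.8% of all genes were called in either direction. The higher count was 5 without retina replicate 4, brain replicate 1 or brain replicate 2, and the lower count was 1 without any 1 of retina replicates 1, 2 and 4 and brain replicates 1, 2 and 3. For retinal microglia over marrow monocytes 10 members were higher and 9 lower, beside 32.2% and 27.1% (59.3% in all), close to the background. Brain microglia over marrow monocytes gave 6 higher and 12 lower, beside 28.5% and 27.4% (56% in all), with a median member log2 difference of -0.28 against 0.04 for all genes. The libraries did not overlap for 10 higher and 6 lower members in retina over brain (10.2% and 7.9% of tested genes), 9 and 9 in retina over marrow (29.5% and 25.7%), and 8 and 12 in brain over marrow (28.5% and 28.1%). Within lane 2 cornea over retina had 17 members higher and 7 lower, cornea over marrow 10 and 4, and retina over marrow 4 and 6, where 60.4%, 40.5% and 36% of all genes were called. Within lane 3 cornea over brain had 17 higher and 7 lower, cornea over marrow 16 and 6, and brain over marrow 9 and 12, where 59%, 54.9% and 56.8% of all genes were called. Cornea had 1 library in lane 3 and marrow 1 in lane 2, and those single libraries were taken to vary like the others.

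A stricter count asked which members were called and at least 2-fold different from each of the other 3 populations. Cornea macrophages were higher in this sense for 10 members (Srebf2, Insig1, Idi1, Sqle, Cyp51, Msmo1, Hsd17b7, Sc5d, Fads2 and Scd1), or 29.4% of members, where 13.9% of tested genes met the same rule. By total counts alone 6 of the 10 remained (Insig1, Idi1, Sqle, Hsd17b7, Sc5d and Fads2). The share of tested genes higher by this rule under that scaling is not given here, so the 6 have no background beside them. Cornea was lower for Ebp and Scd2 (11.3% of tested genes). By total counts 5 members were lower (Dhcr7, Acly and Nsdhl in addition; 23% of tested genes), and without retina replicate 3, or without the 3 libraries of differing title, Scd2 alone was. Brain microglia were lower for Srebf2, Idi1, Sqle and Stard4 (2.45% of tested genes) and higher for Scd2 (0.4%). With lane as a term in the fit, Sqle remained of the 4 and Scd2 was no longer called against retina. Without retina replicate 1, or without brain replicate 2, 2 of the 4 remained. Marrow monocytes were higher for Mvd (7.28% of tested genes) and lower for Fads1 (9.63%), and no member met the rule for retinal microglia, where 1.35% of tested genes were higher and 0.14% lower.

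**Figure D3:**
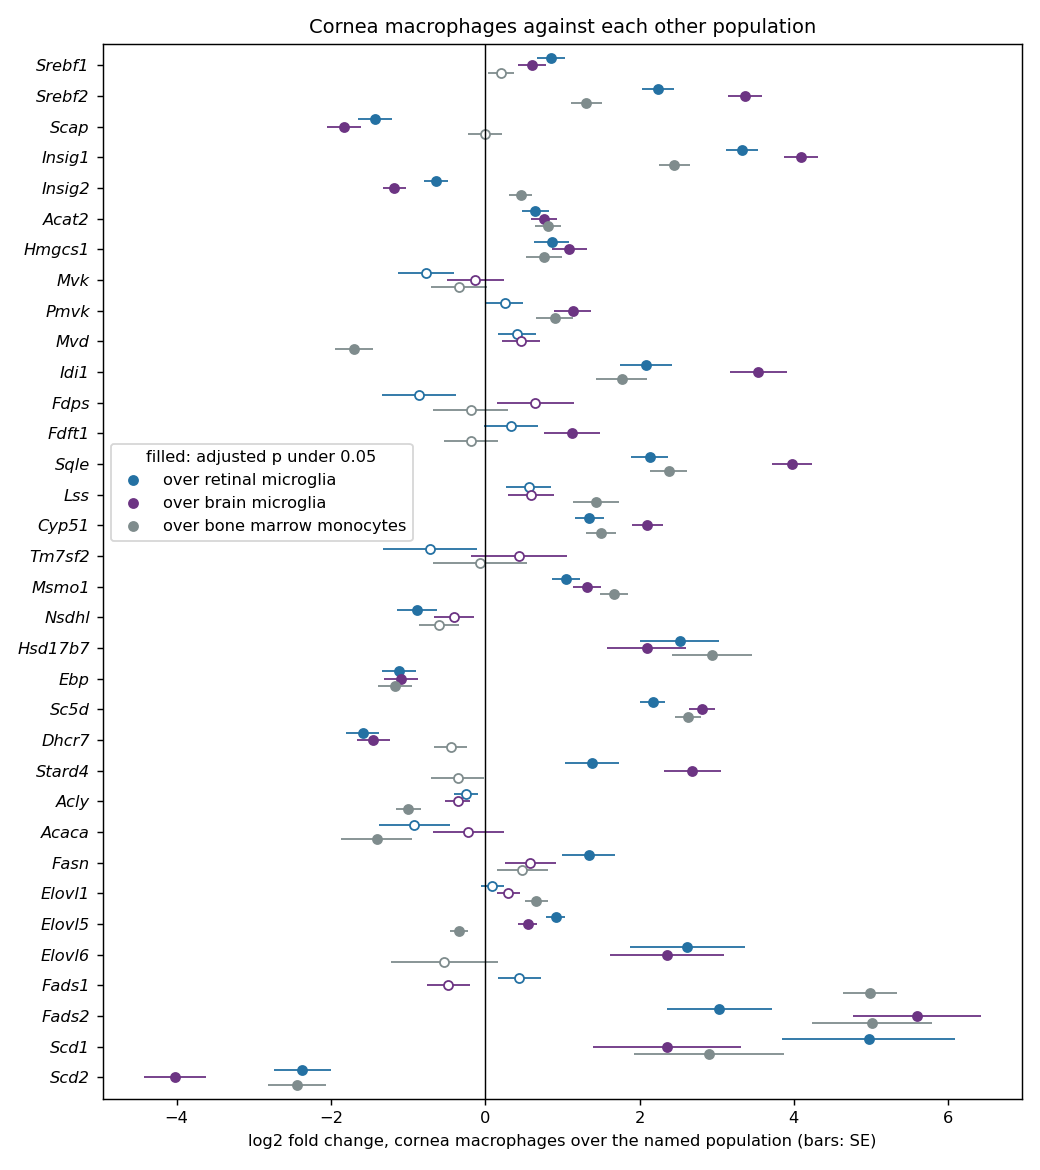
Log2 fold change of each gene in cornea macrophages over retinal microglia (blue), brain microglia (purple) and bone marrow monocytes (grey), with bars of 1 SE and filled points where the adjusted p is under 0.05. Insig1, Sqle, Sc5d and Idi1 lie right of 0 and Ebp and Scd2 left of 0 against all 3 populations.

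Where 4 values are given for a population they are its libraries in replicate order. Among the regulators, Srebf2 and Insig1 were high in cornea macrophages and low in both microglia, while Insig2 and Scap were higher in both microglia than in cornea macrophages and marrow monocytes. Srebf2, which encodes SREBP-2 (chr15:82147181-82205379, plus strand), had 149, 127, 166 and 131 CPM in cornea macrophages, 40.5, 29.4, 19.2 and 32.2 in retinal microglia, 13.5, 10.3, 14 and 18.0 in brain microglia and 52.0, 59.2, 52.6 and 66.7 in marrow monocytes. No 2 populations overlapped, in the order cornea, marrow, retina, brain, and all 6 pairs were called. The log2 fold change was 2.24 for cornea over retina (SE 0.21, adjusted p = 5.9e-08), 3.36 for cornea over brain (SE 0.22, adjusted p = 6.4e-10) and 1.31 for cornea over marrow (SE 0.20, adjusted p = 2.37e-05). Retina exceeded brain by 1.12 (SE 0.21, adjusted p = 0.00201), and the change was -0.92 for retina over marrow and -2.04 for brain over marrow.

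Insig1, the sterol-sensitive anchor of SCAP and itself an SREBP target (chr5:28071363-28078662, plus strand), spread still further. It had 268, 321, 211 and 198 CPM in cornea macrophages, 30.5, 27.1, 18.6 and 22.9 in retinal microglia, 17.0, 10.3, 17.9 and 13.3 in brain microglia and 47.4, 44.4, 44.4 and 46.3 in marrow monocytes. Again no populations overlapped and all pairs were called, cornea being 10.1-fold above retina, 17.1-fold above brain and 5.46-fold above marrow (log2 SE 0.20 to 0.22; adjusted p = 3.41e-10, 3.96e-11 and 1.1e-08). The smallest difference, 0.76 for retina over brain (SE 0.20, adjusted p = 0.0197), fell short of the threshold without retina replicate 1 (0.65), retina replicate 2 (0.72), brain replicate 2 (0.63) or brain replicate 4 (0.72).

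Insig2, the paralogue that also retains SCAP but is not induced by SREBPs in the same way, was highest in brain microglia. Its levels were 28.0, 35.2, 44.0 and 38.5 CPM in cornea macrophages, 48.6, 56.5, 68.1 and 53.5 in retinal microglia, 80.2, 85.3, 89.9 and 75.5 in brain microglia and 26.9, 24.9, 30.3 and 24.1 in marrow monocytes. Brain lay above retina and retina above cornea and marrow without overlap, whereas cornea and marrow overlapped. Against marrow the log2 fold changes were 1.64 for brain (SE 0.15, adjusted p = 8.84e-08), 1.10 for retina (SE 0.15, adjusted p = 1.04e-05) and 0.46 for cornea, the last turning to -0.22 by total counts and missing the threshold without cornea replicate 3 (0.35). Cornea was lower than retina by -0.64 and lower than brain by -1.18, and retina was lower than brain by -0.54 (adjusted p = 0.0280), a call lost without any 1 of retina replicates 1, 2 and 4 and brain replicates 1, 2 and 3 (-0.48 to -0.56).

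Shares of paralogues were taken per kilobase of the deposited gene length. Insig1 made up 88.0 ± 3.78% of the 2 Insig genes' summed level in cornea macrophages, 33.1 ± 7.40% in retinal microglia, 16.5 ± 3.25% in brain microglia and 65.9 ± 2.60% in marrow monocytes (mean ± SD, n = 4). The ranges of the 4 populations did not overlap, and a share within a library does not change with the scaling. Srebf1, which encodes SREBP-1, had a narrower spread: 56.0, 66.4, 65.9 and 65.0 CPM in cornea, 41.9, 38.0, 23.2 and 37.3 in retina, 34.0, 44.4, 39.2 and 49.1 in brain and 52.8, 58.5, 46.4 and 63.4 in marrow. Cornea exceeded retina by 0.85 (SE 0.18, adjusted p = 0.000425) and brain by 0.60 (SE 0.18, adjusted p = 0.00604; -0.07 by total counts), and retina was below marrow by -0.65 (adjusted p = 0.00425). The other 3 pairs were not called, with 0.20 for cornea over marrow (SE 0.17; -0.47 by total counts), -0.25 for retina over brain (SE 0.18) and -0.41 for brain over marrow (SE 0.18). Srebf1 made up 28.3 ± 3.29% of the 2 Srebf genes per kilobase in cornea, 50.9 ± 2.35% in retina, 72.6 ± 4.58% in brain and 45.9 ± 1.51% in marrow, with no overlap between populations.

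Scap, the escort itself, had 20.7, 14, 22.0 and 11.0 CPM in cornea, 45.3, 47.8, 42.1 and 46.6 in retina, 52.9, 47.8, 58.3 and 81.5 in brain and 17.8, 18.9, 13.2 and 18.1 in marrow. Both microglia populations lay above cornea and marrow without overlap. Cornea over retina was -1.43 (SE 0.22, adjusted p = 2.2e-05) and cornea over brain -1.83 (SE 0.22, adjusted p = 1.4e-06), while retina over marrow was 1.42 (SE 0.22, adjusted p = 2.98e-05) and brain over marrow 1.82 (SE 0.22, adjusted p = 1.89e-06). Cornea over marrow (-0.01, SE 0.22) and retina over brain (-0.40, SE 0.21) were not called. Scap shares 13.2% of its exon bases with another annotated gene on the opposite strand, and the library kit and its strand setting are uncertain, so reads of the overlapping gene cannot be told apart there.

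**Figure D4:**
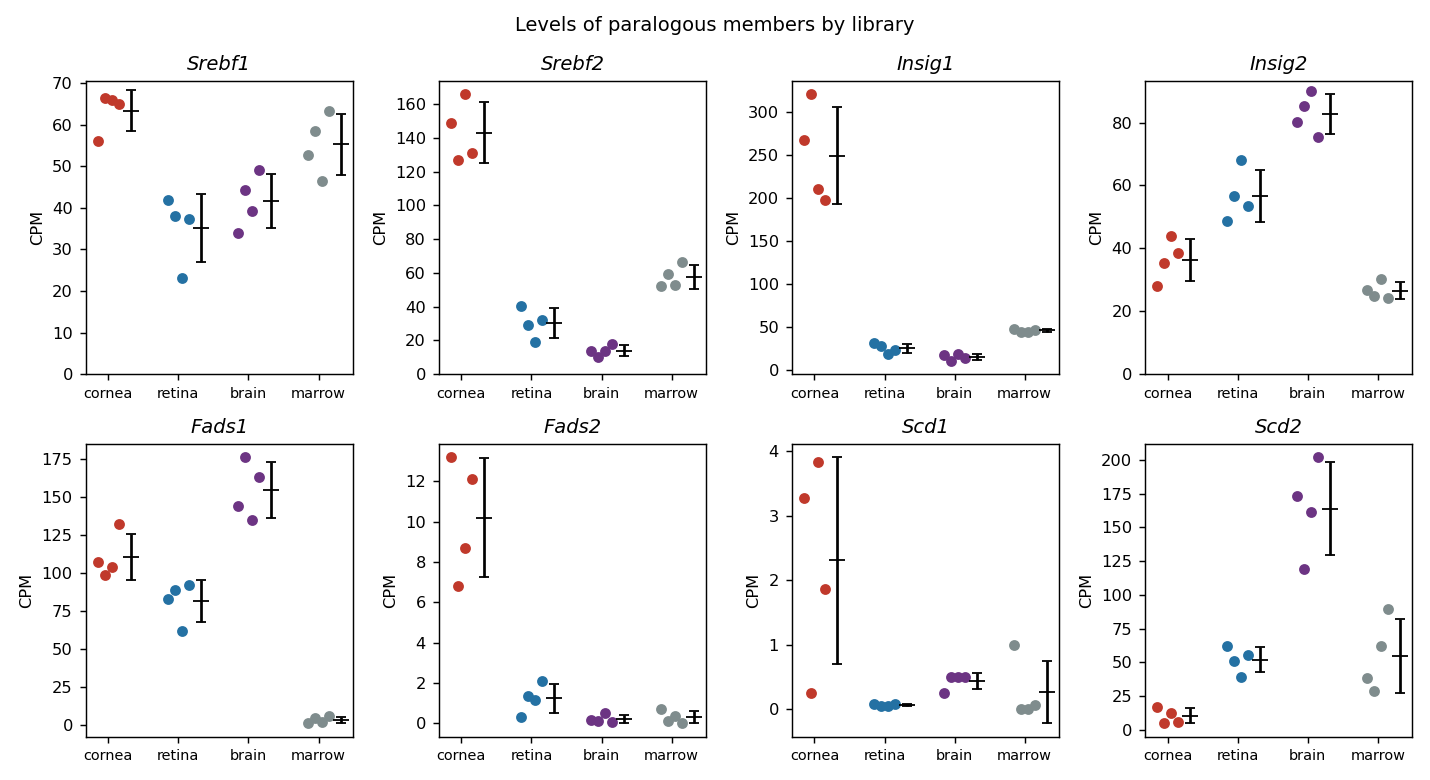
Level (CPM) of Srebf1, Srebf2, Insig1, Insig2, Fads1, Fads2, Scd1 and Scd2 in 4 libraries of each population, with the mean ± SD in black. Srebf2 and Insig1 are highest in cornea, Insig2 and Scd2 in brain, Fads1 is near 0 in marrow, and Scd1 is at or under 3.84 CPM in every library.

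The mevalonate enzymes were mixed: of 7, cornea macrophages were higher than retinal microglia for 3, than brain microglia for 4 and than marrow monocytes for 4, and lower for none, none and 1, where 66%, 66.8% and 63.3% of all genes were called in either direction. Idi1, the isomerase that readies isopentenyl units for joining (chr13:8885501-8892451, plus strand), had 19.7, 20.3, 17.5 and 20.6 CPM in cornea, 1.89, 6.53, 3.87 and 6.02 in retina, 2.31, 1.83, 1.39 and 1.16 in brain and 5.42, 4.48, 5.47 and 7.45 in marrow. Cornea lay clear of the rest and brain below marrow, with retina overlapping both. The log2 fold change was 2.08 for cornea over retina (SE 0.34, adjusted p = 3.94e-05), 3.54 over brain (SE 0.37, adjusted p = 2.29e-07) and 1.77 over marrow (SE 0.33, adjusted p = 0.000189), and -1.77 for brain over marrow (SE 0.35, adjusted p = 0.000402).

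Hmgcs1, the synthase that makes HMG-CoA, was 77.7, 84.9, 94.3 and 91.6 CPM in cornea, 64.2, 51.1, 31.6 and 44.8 in retina, 51.8, 23.5, 38.7 and 49.4 in brain and 42.6, 53.0, 58.1 and 52.6 in marrow. Cornea was above the other 3 without overlap (0.86, 1.09 and 0.76 on the log2 scale, SE 0.23 each; adjusted p = 0.00299, 0.000466 and 0.00769), and those 3 overlapped one another, with no pair called. Hmgcs1 shares 12.1% of its exon bases with an antisense gene, whose reads cannot be told apart there. Acat2, the cytosolic thiolase of the first step, averaged 31.9 CPM in cornea, 20.3 in retina, 18.8 in brain and 18.2 in marrow, and was called in the same 3 pairs (0.65 to 0.81). As listed above, none of these 6 calls held by total counts alone. Pmvk, the phosphomevalonate kinase, averaged 21.4 CPM in cornea, 17.9 in retina, 9.73 in brain and 11.5 in marrow; cornea and retina exceeded brain (1.13 and 0.88) and marrow (0.90 and 0.64). The retinal calls were lost without retina replicate 3 (0.73 over brain and 0.49 over marrow) or 4 (0.87 and 0.63), over brain also without brain replicate 1 (0.75) or 3 (0.78), and over marrow without marrow replicate 3 (0.65) or 4 (0.56). They were lost as well without the 3 libraries of differing title, and the call over brain in a fit of those 2 populations only.

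Mvd, the decarboxylase that closes the mevalonate steps, was the one member highest in marrow monocytes at 2-fold or more: 12.6, 10.5, 10.2 and 12.9 CPM in cornea, 7.24, 9.80, 11.1 and 6.50 in retina, 4.88, 6.91, 8.72 and 12.9 in brain and 39.1, 37.0, 38.0 and 36.5 in marrow. Every marrow library exceeded every other library, while the other 3 populations overlapped. The log2 fold change over marrow was -1.70 in cornea (SE 0.25, adjusted p = 1.75e-05), -2.12 in retina (SE 0.26, adjusted p = 2.25e-06) and -2.17 in brain (SE 0.26, adjusted p = 1.72e-06). Mvk, the mevalonate kinase, and Fdps, which joins isoprenoids into farnesyl diphosphate, were called in no pair: Mvk averaged 4.69 CPM in cornea, 8.05 in retina, 5.15 in brain and 5.97 in marrow, and Fdps 1.27, 2.33, 0.809 and 1.46 CPM in the same order. Fdps had 4 to 74 reads per library and shares 26.7% of its exon bases with another gene, so its low level is uncertain.

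From squalene onwards, 5 of 11 enzymes were higher in cornea macrophages than in retinal microglia and 3 lower, 6 higher and 2 lower than in brain microglia, and 6 higher and 1 lower than in marrow monocytes, against the same background. Sqle, the squalene epoxidase (chr15:59315077-59331192, plus strand), had 115, 91.1, 96.7 and 83.3 CPM in cornea, 23.2, 31.2, 16.1 and 17.7 in retina, 6.00, 4.27, 5.35 and 8.62 in brain and 15.8, 15.4, 18.6 and 24.3 in marrow. Cornea was highest and brain lowest without overlap, and retina and marrow overlapped. Cornea was 4.38-fold above retina (adjusted p = 5.92e-07), 15.8-fold above brain (adjusted p = 7.01e-10) and 5.2-fold above marrow (adjusted p = 1.81e-07). Retina over brain was 1.85 (SE 0.25, adjusted p = 0.000106), brain over marrow -1.60 (SE 0.25, adjusted p = 3.1e-05), and retina over marrow 0.25 (SE 0.23), not called.

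Sc5d, the lathosterol desaturase (chr9:42251595-42264256, minus strand), had 151, 170, 146 and 226 CPM in cornea, 33.6, 45.6, 40.9 and 33.4 in retina, 21.8, 22.8, 25.4 and 28.6 in brain and 31.2, 28.1, 25.5 and 27.1 in marrow. Cornea was clear of the rest, and retina was above brain and marrow, which overlapped each other. Cornea over retina was 2.17 (SE 0.16, adjusted p = 3.65e-09), over brain 2.81 (SE 0.17, adjusted p = 1.77e-10) and over marrow 2.63 (SE 0.17, adjusted p = 4.03e-10). Retina exceeded brain by 0.64 (adjusted p = 0.0154) and marrow by 0.46 (adjusted p = 0.0200). Both calls were lost without retina replicate 2 (0.55 and 0.36), the one over brain also without brain replicate 1 (0.59) and the one over marrow without marrow replicate 3 (0.42).

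Hsd17b7, which works as a sterol ketoreductase in this pathway, had 25.7, 18.9, 16.7 and 21.8 CPM in cornea, 3.54, 4.44, 5.76 and 0.802 in retina, 5.31, 6.09, 1.98 and 6.01 in brain and 4.33, 1.89, 1.09 and 3.26 in marrow. The cornea libraries were all above the others, which overlapped. The log2 fold change of cornea over retina was 2.52 (SE 0.51, adjusted p = 0.000366), over brain 2.09 (SE 0.51, adjusted p = 0.00156) and over marrow 2.94 (SE 0.52, adjusted p = 0.000111). Cyp51, the lanosterol demethylase, averaged 105 ± 21.7 CPM in cornea, 41.2 ± 9.62 in retina, 24.6 ± 1.8 in brain and 37.2 ± 7.25 in marrow (SD, n = 4), with cornea 1.35, 2.10 and 1.50 higher on the log2 scale. Msmo1, the methylsterol oxidase of a later step, averaged 116 ± 18.9, 56.1 ± 14.5, 46.8 ± 5.95 and 36.5 ± 2.41 CPM in cornea, retina, brain and marrow, with cornea 1.05, 1.32 and 1.67 higher. By total counts alone Msmo1 was no longer called over retina, and its other 2 calls and all 3 of Cyp51 remained.

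Not every late enzyme followed this order. Ebp, the sterol isomerase, was lowest in cornea: 37.8, 36.2, 27.6 and 27.9 CPM, against 57.9, 58.7, 114 and 50.2 in retina, 65.7, 62.2, 82.1 and 65.3 in brain and 82.0, 75.2, 62.0 and 71.2 in marrow. Cornea did not overlap with any other population and the other 3 overlapped. The log2 fold changes of cornea over retina, brain and marrow were -1.12, -1.09 and -1.17 (SE 0.22 each, adjusted p = 0.000271, 0.000343 and 0.000193). Dhcr7, the reductase of the last step, averaged 9.79 ± 2.12 CPM in cornea, 29.6 ± 5.35 in retina, 26.8 ± 6.57 in brain and 13.4 ± 1.12 in marrow (SD, n = 4). Both microglia exceeded cornea and marrow: cornea over retina was -1.59 and over brain -1.45, retina over marrow 1.14 and brain over marrow 1.00. Nsdhl, a sterol dehydrogenase, was lower in cornea than in retina (11.5 ± 1.87 against 21.1 ± 5.01 CPM; log2 -0.88, adjusted p = 0.00739), a call lost without the 3 libraries whose titles lack a letter that the other titles carry.

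Lss, the lanosterol synthase, averaged 9.73 CPM in cornea, 6.59 in retina, 6.48 in brain and 3.60 in marrow, where all 3 tissue populations exceeded marrow (1.43, 0.87 and 0.84). The retinal call was lost without retina replicate 4 (0.71) or marrow replicate 3 (0.77), and the brain call without brain replicate 1 (0.76) or marrow replicate 3 (0.75), without a filter and with limma-voom. Fdft1, the squalene synthase, averaged 10.1, 8.02, 4.65 and 11.4 CPM in the same order and was lower in brain than in marrow (-1.30, adjusted p = 0.00555) and than in cornea (1.12 for cornea over brain, adjusted p = 0.0116; not called without cornea replicate 3, 0.84, or within lane 3, -0.10). It shares 18.3% of its exon bases with Ctsb on the opposite strand, and that gene's reads cannot be told apart there. Tm7sf2, a sterol reductase, was called in no pair, at 1.06 to 3.40 CPM in cornea, 3.51 to 4.37 in retina, 0.102 to 3.17 in brain and 1.28 to 3.56 in marrow, and it shares 12.1% of its exon bases with Vps51. Stard4, a cytosolic sterol carrier, had 8.71, 5.02, 9.98 and 6.57 CPM in cornea, 3.07, 1.71, 3.23 and 3.61 in retina, 1.88, 0.813, 1.29 and 0.725 in brain and 9.39, 8.86, 11.7 and 9.01 in marrow. Cornea and marrow overlapped and lay above both microglia. The log2 fold change was 1.38 for cornea over retina, 2.68 for cornea over brain (SE 0.37, adjusted p = 7.81e-06), -1.74 for retina over marrow (SE 0.35, adjusted p = 0.000386) and -3.04 for brain over marrow (SE 0.38, adjusted p = 2.56e-06).

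The sequence before the transcription start was available for 27 of the 34 genes (RefSeq, build GRCm38.p6; 36 windows of 250 bases before to 50 after a start site). TCACNCCAC, the consensus of the sterol regulatory element, was searched on both strands and occurred in 1 of the 36 windows, that of Hmgcs1 on the gene's own strand, and in 1.24% of all 32851 windows of the table. TCACGTGA, an E-box form bound by SREBP-1, was in no member window and in 0.974% of all windows. CCAAT, the motif of NF-Y, a factor known to act beside SREBPs, was in 23 of 36 member windows (63.9%) against 37.4% of all windows, and GGGCGG, an Sp1 motif, in 27 (75%) against 35.7%. A match describes letters and is not a binding site. The 250 bases before the start follow, 5′ to 3′ along the gene, for Hmgcs1 as the one window with the sterol element, for Insig1 and Sc5d as members highest in cornea macrophages, and for Ebp as a member lowest there. Capitals mark the sterol element (in Hmgcs1) and CCAAT on either strand, read as ATTGG on the opposite one.
Hmgcs1, chr13:119690101-119690350, plus strand: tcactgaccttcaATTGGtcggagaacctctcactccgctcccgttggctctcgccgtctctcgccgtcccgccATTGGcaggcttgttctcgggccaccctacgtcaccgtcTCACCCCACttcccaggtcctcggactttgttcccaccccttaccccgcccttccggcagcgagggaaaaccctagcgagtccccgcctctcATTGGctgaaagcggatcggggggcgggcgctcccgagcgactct
Insig1, chr5:28071162-28071411, plus strand: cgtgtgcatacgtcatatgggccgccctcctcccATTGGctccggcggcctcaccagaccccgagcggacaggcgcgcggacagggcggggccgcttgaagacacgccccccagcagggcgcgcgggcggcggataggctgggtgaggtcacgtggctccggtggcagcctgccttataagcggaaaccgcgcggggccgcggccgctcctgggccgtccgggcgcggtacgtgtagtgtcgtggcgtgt
Sc5d, chr9:42264301-42264550, minus strand: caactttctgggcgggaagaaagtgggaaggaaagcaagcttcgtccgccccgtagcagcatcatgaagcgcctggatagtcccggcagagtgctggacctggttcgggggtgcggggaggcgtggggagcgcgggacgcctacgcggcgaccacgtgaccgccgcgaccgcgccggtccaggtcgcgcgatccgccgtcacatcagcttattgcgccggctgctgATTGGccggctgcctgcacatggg
Ebp, chrX:8193513-8193762, minus strand: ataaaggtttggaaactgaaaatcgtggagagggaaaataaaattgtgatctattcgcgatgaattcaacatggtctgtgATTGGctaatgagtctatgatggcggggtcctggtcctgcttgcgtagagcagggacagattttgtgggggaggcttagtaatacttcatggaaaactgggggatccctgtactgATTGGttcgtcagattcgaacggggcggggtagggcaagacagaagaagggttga
Within these stretches CCAAT matched 3 times before Hmgcs1, 1 time before Insig1, 1 time before Sc5d and 2 times before Ebp, so it was present before genes of both orders.

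Fatty acid synthesis genes did not share the cornea-high order. Acly, which releases acetyl-CoA from citrate (chr11:100476353-100528000, minus strand), had 144, 205, 129 and 143 CPM in cornea, 236, 178, 132 and 191 in retina, 207, 180, 205 and 205 in brain and 321, 293, 319 and 312 in marrow. Marrow lay above every other library and the other 3 populations overlapped. The log2 fold change over marrow was -1 in cornea (SE 0.16, adjusted p = 4.6e-05), -0.75 in retina (SE 0.16, adjusted p = 0.000798) and -0.64 in brain (SE 0.16, adjusted p = 0.00283). Acaca, the acetyl-CoA carboxylase that supplies malonyl-CoA, averaged 4.58 ± 2.50 CPM in cornea, 8.63 ± 4.82 in retina, 5.32 ± 0.520 in brain and 12.1 ± 2.68 in marrow (SD, n = 4), and was lower than marrow in cornea (-1.41, adjusted p = 0.0132) and brain (-1.19, adjusted p = 0.0352). The brain call was lost without any 1 of the 4 brain libraries or of marrow replicates 1, 2 and 4 (-1.04 to -1.23), and the cornea call held without any 1 library. Fasn, the fatty acid synthase, averaged 28.7 ± 10.7, 11.3 ± 4.91, 19.2 ± 4.49 and 20.5 ± 3.98 CPM in cornea, retina, brain and marrow. Fasn was called higher in cornea than in retina (1.34, SE 0.34, adjusted p = 0.00224) and lower in retina than in marrow (-0.85, adjusted p = 0.0375), and retina replicate 3 was its lowest library at 4.41 CPM. The call against marrow was lost without that library (-0.59), retina replicate 1 (-0.87), without marrow replicate 1, 2 or 4 (-0.75 to -0.89), without a filter, by total counts, in a fit of these 2 populations only and without the 3 libraries of differing title.

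Of the elongases, Elovl1, which extends very long chains, had the least spread: 164, 169, 177 and 205 CPM in cornea, 131, 176, 225 and 139 in retina, 130, 158, 136 and 158 in brain and 114, 110, 106 and 123 in marrow. Marrow was lowest without overlap and the rest overlapped except cornea and brain. Cornea over marrow was 0.66 (SE 0.15, adjusted p = 0.00117; -0.01 by total counts) and retina over marrow 0.57 (SE 0.15, adjusted p = 0.00416). The other 4 pairs were not called, at 0.09 for cornea over retina (SE 0.15; -0.70 by total counts), 0.30 for cornea over brain (SE 0.15; -0.37 by total counts), 0.21 for retina over brain (SE 0.15) and 0.36 for brain over marrow (SE 0.15).

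Elovl5, which lengthens polyunsaturated chains, had 122, 119, 113 and 103 CPM in cornea, 58.0, 65.8, 56.4 and 62.8 in retina, 72.9, 80.9, 83.1 and 76.1 in brain and 140, 127, 131 and 179 in marrow. The 4 populations did not overlap, in the order marrow, cornea, brain, retina. Against marrow the log2 fold change was -1.24 in retina (SE 0.12, adjusted p = 2.05e-07), -0.88 in brain (SE 0.12, adjusted p = 1.02e-05) and -0.34 in cornea (adjusted p = 0.0240), the last lost without cornea replicate 4 (-0.28) or marrow replicate 4 (-0.21), with other size factors (-0.25), with DESeq2 (-0.25), without a filter (-0.32), in a fit of these 2 populations only (-0.28) and within lane 2 (-0.21) or lane 3 (-0.50). Cornea exceeded retina by 0.91 (adjusted p = 5.77e-06) and brain by 0.55 (adjusted p = 0.000870; -0.13 by total counts), and retina over brain, at -0.36 (SE 0.12), was not called.

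Elovl6, which extends palmitate, was present in cornea and marrow and scarce in microglia. Its levels were 12.6, 8.60, 4.38 and 6.57 CPM in cornea, 1.65, 0.926, 0 and 2.57 in retina, 1.03, 1.02, 0.594 and 3.48 in brain and 13.4, 13.6, 13.6 and 5.68 in marrow. Cornea and marrow overlapped, as did retina and brain, and the 2 pairs of populations were separate. For Elovl6, cornea over retina was 2.62 (SE 0.74, adjusted p = 0.00510) and over brain 2.35 (SE 0.74, adjusted p = 0.0103), and these were 3.25 without retina replicate 4 and 3.17 without brain replicate 4. Retina over marrow was -3.15 (SE 0.75, adjusted p = 0.00178; -3.78 without retina replicate 4) and brain over marrow -2.88 (SE 0.75, adjusted p = 0.00352; -3.70 without brain replicate 4). Cornea over marrow (-0.53, SE 0.69) and retina over brain (-0.27, SE 0.74) were not called.

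The 4 desaturases did not share an order across the populations. Fads1, the delta-5 desaturase of polyunsaturated fatty acids (chr19:10182888-10196877, plus strand), had 107, 98.6, 104 and 132 CPM in cornea, 83.2, 88.8, 62.0 and 92.1 in retina, 144, 176, 135 and 163 in brain and 1.26, 4.98, 2.10 and 5.89 in marrow. No populations overlapped, and the widest gap lay between the 12 tissue libraries, at 62.0 CPM or more, and the 4 marrow libraries, at 5.89 CPM or less. Over marrow the fold was 31.8 in cornea (adjusted p = 1.51e-09), 23.5 in retina (adjusted p = 5.94e-09) and 44.5 in brain (adjusted p = 7.03e-10), with log2 SE of 0.34 to 0.35. Cornea over retina was 0.44 (SE 0.28; -0.36 by total counts) and over brain -0.48 (SE 0.28; 0.19 with lane as a term), neither called. Retina over brain was -0.92 (SE 0.28, adjusted p = 0.0466), a call that no fit leaving out 1 of the 8 retinal and brain libraries kept (-0.81 to -0.99).

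Fads2, the delta-6 desaturase encoded beside Fads1 (chr19:10062765-10101746, minus strand), was far lower and had another order: 13.2, 6.81, 8.67 and 12.1 CPM in cornea, 0.315, 1.37, 1.13 and 2.09 in retina, 0.171, 0.102, 0.495 and 0.0725 in brain and 0.677, 0.0996, 0.365 and 0 in marrow. Cornea stood above all other libraries, and the others overlapped at levels that rested on 0 to 52 reads. Cornea over retina was 3.03 (SE 0.68, adjusted p = 0.000891; 2.39 without the 3 libraries of differing title), over brain 5.59 (SE 0.83, adjusted p = 1.51e-05; 6.36 without brain replicate 3) and over marrow 5.01 (SE 0.78, adjusted p = 2.66e-05; 6.03 without marrow replicate 1). Retina over brain, 2.56 (SE 0.80, adjusted p = 0.0489), was lost without any 1 of the 8 libraries but brain replicate 3 and retina replicate 1 (2.18 to 2.61; 3.35 without brain replicate 3). Retina over marrow, 1.98 (SE 0.73, adjusted p = 0.0275), was lost without retina replicate 4 (1.6), marrow replicate 2 (1.75) or marrow replicate 4 (1.58) and was 3.01 without marrow replicate 1. Brain over marrow was -0.58 (SE 0.86), not called.

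Scd2, the stearoyl-CoA desaturase of brain and many other tissues (chr19:44293674-44306864, plus strand), had 17.0, 5.28, 12.5 and 6.04 CPM in cornea, 62.0, 51.0, 39.4 and 55.5 in retina, 173, 119, 161 and 202 in brain and 38.5, 28.4, 62.3 and 89.7 in marrow. Brain was highest and cornea lowest without overlap, while retina and marrow overlapped. Scd2 in cornea over retina was -2.37 (SE 0.37, adjusted p = 3.16e-05), over brain -4.02 (SE 0.40, adjusted p = 1.19e-07) and over marrow -2.44 (SE 0.38, adjusted p = 2.44e-05). Retina was below brain by -1.65 (SE 0.35, adjusted p = 0.00560), brain over marrow was 1.58 (SE 0.35, adjusted p = 0.00103), and retina over marrow was -0.07 (SE 0.35), not called.

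Scd1, its neighbour and the isoform of liver and fat (chr19:44394455-44407879, minus strand), was low everywhere: 3.28, 0.255, 3.84 and 1.86 CPM in cornea, 0.0787, 0.0488, 0.0538 and 0.0802 in retina, 0.257, 0.508, 0.495 and 0.507 in brain and 0.993, 0, 0 and 0.0710 in marrow. These values rested on 3 to 50 reads in cornea, 1 or 2 in retina, 3 to 7 in brain and 0 to 22 in marrow. Cornea did not overlap with retina but did with brain and marrow, through cornea replicate 2. The fitted change was 4.97 over retina (SE 1.12, adjusted p = 0.000886), 2.36 over brain (SE 0.96, adjusted p = 0.0392) and 2.90 over marrow (SE 0.97, adjusted p = 0.0155; 5.98 without marrow replicate 1). The call against brain was lost without cornea replicate 1 (2.13) or 3 (1.97) or without any 1 brain library (2.18 to 2.44), and with lane as a term the change was 1.03. Retina over brain was -2.61 (SE 1.11), retina over marrow -2.07 (SE 1.10) and brain over marrow 0.53 (SE 0.99), none called with population as the only term. Brain over marrow was called without marrow replicate 1 (3.62, adjusted p = 0.0119) and within lane 3 (3.58, adjusted p = 0.0155). Retina over marrow was called with lane as a term (-2.71, adjusted p = 0.0449) but was 1.02 without marrow replicate 1, not called. Scd1 and Scd2 are close copies and the sources used here do not give the handling of shared reads, so a few reads of one may be counted in the other.

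Retinal over brain microglia gave the fewest called genes of the 6 pairs, 1662 of 15754. Sqle (1.85), Idi1 (1.46), Stard4 (1.30), Srebf2 (1.12), Pmvk (0.88), Insig1 (0.76), Cyp51 (0.75), Sc5d (0.64) and Fads2 (2.56) were higher in retinal microglia, and Scd2 (-1.65), Fads1 (-0.92) and Insig2 (-0.54) lower. Because retina was sequenced in lane 2 and brain in lane 3, population and lane were split only through the cornea and marrow libraries that lay in both lanes. With lane as a term, 1 of the 12 stayed past the threshold (Sqle, 1.86, SE 0.38, adjusted p = 0.0128), while 2.94% of all genes were called. All 12 kept their sign and 8 moved by less than 1 SE, while the median SE of the members grew to 0.38, against 0.25 without the term. Apart from the losses given above for Insig1, Insig2, Pmvk, Sc5d, Fads1 and Fads2, the call of Stard4 was lost without retina replicate 1, 3 or 4 or brain replicate 2, 3 or 4 (1.12 to 1.34), and that of Cyp51 without retina replicate 4 (0.62), brain replicate 1 (0.73) or brain replicate 2 (0.71). Of the 12, Fads1 moved most, to -0.03 (SE 0.43). In other pairs lane as a term ended the calls of Fdft1, Elovl6 and Scd1 for cornea over brain, of Pmvk, Msmo1, Fasn and Fads2 for retina over marrow, and of Lss and Acaca for brain over marrow.

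**Figure D5:**
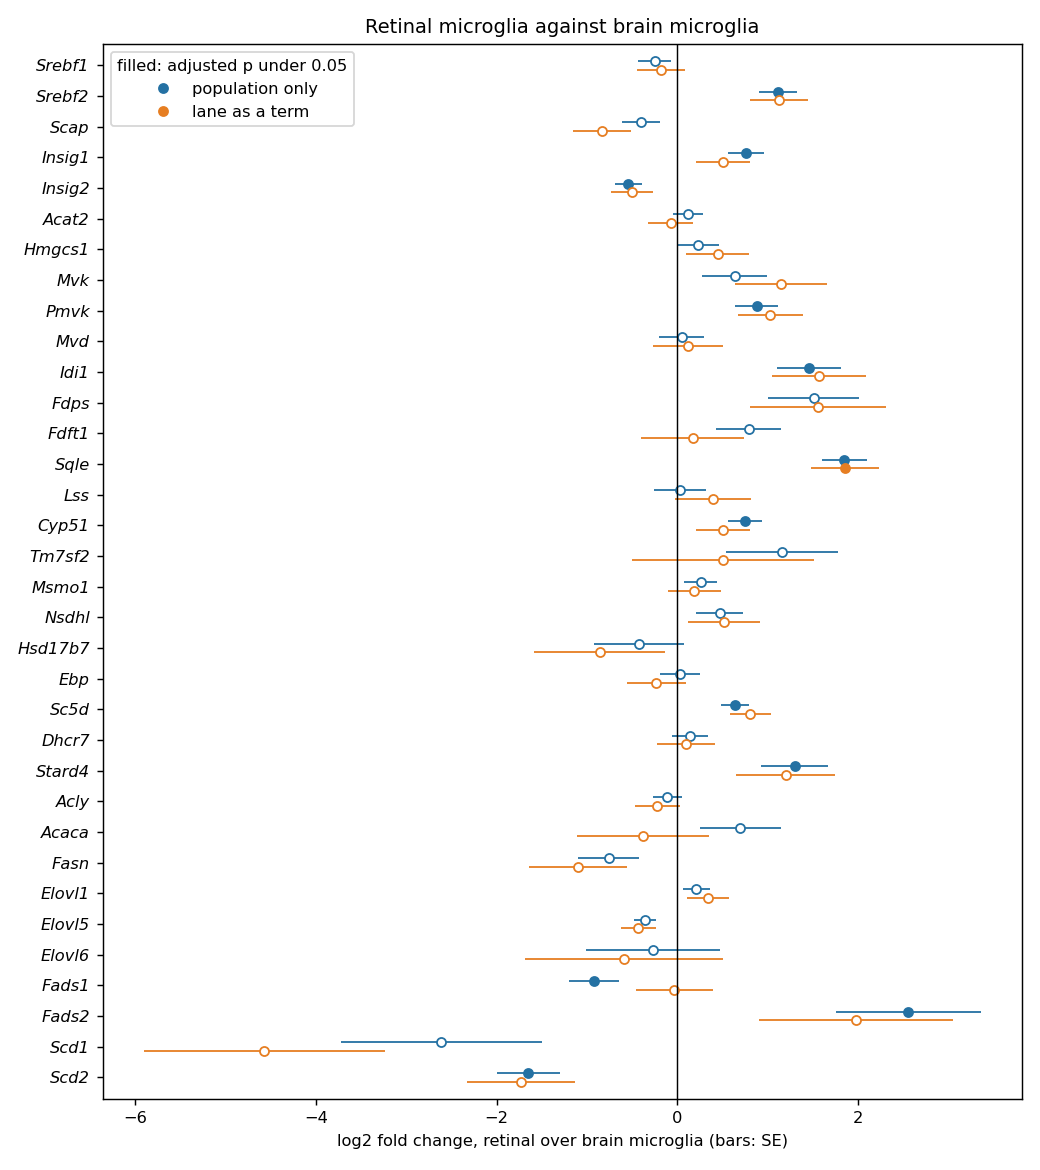
Log2 fold change of each gene in retinal over brain microglia from the fit on population alone (blue) and with sequencer lane as a term (orange), with bars of 1 SE and filled points where the adjusted p is under 0.05. Sqle keeps its call at 1.86, Fads1 moves to -0.03, and Acat2, Ebp and Acaca, called in neither fit, change sign.

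Different genes were set side by side per kilobase of the deposited gene length. That length equalled the annotated exon bases for 22 of 34 members, but not for Sc5d (2328 against 4866) or Srebf2 (4989 against 7184). Levels and shares of such genes depend on the length used. The members' median then lay at the 60.2 percentile of tested genes in cornea, 57.6 in retina, 53.7 in brain and 53.2 in marrow. In cornea macrophages the top members were Insig1 (80.6 ± 18.2 CPM per kilobase), Sc5d (74.5 ± 15.7) and Elovl1 (65.6 ± 6.71), which did not differ beyond their spread. Retinal microglia led with Elovl1 (61.5 ± 15.7), Acly (34.9 ± 8.09) and Ebp (30.4 ± 12.7). Brain microglia led with Elovl1 (53.3 ± 5.42), Fads1 (44.7 ± 5.45) and Acly (37.8 ± 2.42), followed by Scd2 (30.0 ± 6.29). In marrow monocytes Acly (58.9 ± 2.38) stood above Elovl1 (41.6 ± 2.74) and Elovl5 (40.9 ± 6.79). Scd2 made up 81.4 ± 9.70% of the 2 Scd genes per kilobase in cornea, 99.9 ± 0.0241% in retina, 99.7 ± 0.130% in brain and 99.3 ± 1.40% in marrow.

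Beyond the members, 28 of 30 further enzymes and partners of the pathway were tested. Of these, 9 were higher and 8 lower in cornea than in retina, 11 and 7 in cornea than in brain, 11 and 7 in cornea than in marrow, 3 and 0 in retina than in brain, 13 and 7 in retina than in marrow, and 11 and 7 in brain than in marrow. Over all tested genes 66%, 66.8%, 63.3%, 10.5%, 59.3% and 56% were called in these pairs, in the same order. Por, the reductase that supplies electrons to Sqle and Cyp51, averaged 1200 ± 68.4 CPM in cornea against 73.4 ± 6.96 in retina (log2 4.03, SE 0.13, adjusted p = 2.24e-13). Thrsp, a lipogenic regulator best known in liver, averaged 0.136 ± 0.220 CPM in cornea, 45.9 ± 14.5 in retina, 67.0 ± 6.72 in brain and 0.0931 ± 0.0746 in marrow, and both microglia exceeded both other populations (for example -8.24 for cornea over retina and 9.44 for brain over marrow; adjusted p = 2.16e-10 and 8.28e-11). Elovl4, an elongase of photoreceptors, averaged 62.5 ± 55.9 CPM in retina and 0.198 ± 0.396 in brain (log2 8.38, adjusted p = 0.000248), beside the photoreceptor markers given above, whose part was not tested.

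Of 16 genes of SREBP processing and sterol sensing, 8 were higher and 5 lower in cornea than in retina, 7 and 7 in cornea than in brain, 6 and 5 in cornea than in marrow, 1 and 5 in retina than in brain, 8 and 5 in retina than in marrow, and 10 and 3 in brain than in marrow, against the same shares of all tested genes. Ch25h, which makes 25-hydroxycholesterol, a suppressor of SREBP processing, averaged 173 ± 31.4 CPM in cornea, 1.37 ± 0.753 in retina, 0.180 ± 0.161 in brain and 0 in marrow (log2 6.92 for cornea over retina and 9.72 over brain). Nr1h3, which encodes the oxysterol receptor LXR-alpha, averaged 52.6 ± 15.8 CPM in cornea, 0.696 ± 0.558 in retina, 0.822 ± 0.139 in brain and 1.07 ± 0.482 in marrow (6.29, 5.97 and 5.57 for cornea over each). The sterol exporter Abca1 averaged 735 ± 200 CPM in cornea, 107 ± 52.4 in retina, 348 ± 49.9 in brain and 6.53 ± 3.84 in marrow. Mylip, a ubiquitin ligase that is an LXR target, averaged 223 ± 5.22 CPM in retina and 275 ± 15.0 in brain against 13.1 ± 1.28 in marrow (4.09 and 4.39). Mean levels of Ch25h, Nr1h3 and Abca1, like those of Srebf2, Insig1, Sqle and Idi1, were highest in cornea macrophages. Ch25h, Nr1h3 and Abca1 were named for the size of their changes, so this shared order is not a separate result. The cornea libraries also held the highest sums of immediate-early genes, whose part was not tested.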

How the data were processed

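RNA of 16 sorted-cell libraries was sequenced, 4 for each of 4 populations. The authors deposited raw read counts per gene (whole numbers), and the submitters' processing notes name CASAVA 1.8.2, Subread, featureCounts and limma and the build GRCm38.p4. The kit and strand setting are uncertain, because the extraction text in the labels describes another tissue. Of 45664 entries, 16739 had no count in any library. Populations came from the sample titles and sources.

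Counts were analysed with edgeR 4.0.16 in R 4.3.3: genes were kept by filterByExpr (minimum count 10), scaled by trimmed mean of M values (TMM) and tested with the quasi-likelihood test on all 16 libraries, with population as the only term. P-values were adjusted by Benjamini-Hochberg over 15754 genes for each of 6 pairs, and a gene was called at an adjusted p under 0.05. Levels are CPM scaled by TMM, and genes are compared with one another only per kilobase of the deposited length. The fit was tested on simulated counts. Alternatives were other size factors, total counts alone, no filter, DESeq2 1.42.0, limma 3.58.1 (voom), fits to 2 populations, lane, a replicate block and leaving out libraries.

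Values of every library are given for the members called at 2-fold or more with no overlap (at most the 6 largest changes of a pair) and for the Srebf, Insig, Fads, Scd and Elovl groups in every pair. Of 2 further pathway lists, named genes come from the 3 largest called changes of a pair; other genes with values were chosen after their values were seen. The members and lists were chosen with earlier results of these data known. Gene positions are from GENCODE vM21 (GRCm38). No 2 libraries were alike within counting noise. Each library's number of reads limits precision for genes such as Scd1 and Fads2.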

Additional observations from a re-analysis of the deposited data

Results flagged for a closer look

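A library that stood apart from the other 3 of its population was found in 9 of 136 combinations of gene and population, where chance gives about 1 in 20. Srebf1 had 56.0 CPM in cornea replicate 1, against 65.0 to 66.4 in the other cornea libraries. Msmo1 had 34.8 CPM in retina replicate 4, against 59.6 to 66.2 in the other retina libraries. Hsd17b7 had 1.98 CPM in brain replicate 3 (5.31 to 6.09 in the others), Acly had 180 CPM in brain replicate 2 (205 to 207 in the others), and Scd1 had 0.257 CPM in brain replicate 1 (0.495 to 0.508 in the others).

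Marrow held the other 4. Nsdhl had 12.9 CPM in marrow replicate 2 (18.7 to 19.0 in the others) and Dhcr7 had 15.0 CPM in replicate 4 (12.7 to 13 in the others). Elovl6 had 5.68 CPM in marrow replicate 4, against 13.4 to 13.6 in the others. Scd1 had 0.993 CPM in marrow replicate 1, against 0 to 0.0710 in the others, and that library also had the highest granulocyte and erythroid marker sums, whose part was not tested.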

How the results depend on the processing

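Of 1341 alternative values for 78 differences of single genes, 1218 kept their direction and their side of the threshold, 78 lost the call, 24 gained one and 21 changed sign. By total counts alone, cornea had 10 members higher and 12 lower than retina, 10 and 9 against brain and 13 lower than marrow, and retina had 1 lower than brain. Under that scaling 72.4%, 70.9%, 70% and 10.4% of all genes were called in these pairs, in the same order. The members at least 2-fold from each other population then numbered 6 higher and 5 lower in cornea and 2 higher in marrow. For the higher counts the share of tested genes under that scaling is not given here. Signs changed by total counts for cornea over retina in Fads1 (-0.36) and Elovl1 (-0.70), for cornea over brain in Srebf1 (-0.07), Elovl1 (-0.37) and Elovl5 (-0.13), for cornea over marrow in Srebf1 (-0.47), Insig2 (-0.22) and Elovl1 (-0.01), and for retina over marrow in Scd2 (0.05; 0.04 with limma-voom).

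Fitting retina and brain alone gave 4 members higher and 3 lower, where 10.3% of all genes were called. Lane as a term gave 1 higher and 0 lower in that pair, where 2.94% of all genes were called. For brain against each other population the lane term left 0 higher and 1 lower, and Fads1 for cornea over brain became 0.19. Within lane 2 alone, which held 1 marrow library, Scd2 for retina over marrow was 0.47. Within lane 3 alone, Fads2 for brain over marrow was 0.46. Without the 3 libraries of differing title, 1 member was lower in cornea against each other population, and Elovl6 for retina over brain was 0.17.

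For retina over brain, leaving out 1 library at a time gave 5 to 7 members higher and 1 to 2 lower. In those fits 6.95% to 9.8% of all genes were called. Against each other population, 2 to 4 members were then lower in brain and 1 to 2 lower in cornea. Uncalled values that crossed 0 ranged from -0.01 to 0.27 (Elovl1, cornea over retina), -0.90 to 0.55 (Elovl6, retina over brain), -2.42 to 1.02 (Scd1, retina over marrow), -0.29 to 0.27 (Scd2, retina over marrow) and -1.36 to 0.44 (Fads2, brain over marrow). The cause of these changes was not tested. For brain and marrow libraries that share a number range in their titles, the correlations of deviations were -0.01 and 0.03. Such values cannot show whether those libraries came from the same animals. The replicate block for brain over marrow gave 6 members higher and 11 lower, losing Acaca, where 54.4% of all genes were called. Low counts limit Scd1, Fads2, Elovl6, Tm7sf2, Fdps and Stard4, each with under 10 reads in at least 1 library.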
